A study of Mus musculus with 8 samples.

Results

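The 9 genes Cd3e, Cd3d, Cd3g, Cd247, Lck, Zap70, Lat, Lcp2 and Plcg1 encode the first components of the T cell receptor signalling pathway. They were taken by name, as members of the pathway and not by a threshold on measured values, although earlier results of these data were known, and all 9 were present among the 11911 genes listed for this series. The data were 8 RNA-seq libraries, 4 per genotype, made from total RNA after removal of ribosomal RNA. Controls (WT) were Foxp3YFP-Cre mice, and knockouts (KO) were Tdrd3fl/fl/Foxp3YFP-Cre mice. In the knockouts, Cre made from the Foxp3 locus is meant to remove the floxed part of Tdrd3 only after Foxp3 has been switched on. Both genotypes therefore carry the YFP-Cre allele. Naïve CD4+ T cells were isolated from spleen by negative selection and cultured for 36 h with anti-CD3, anti-CD28, TGF-β, anti-IFN-γ and anti-IL-4 to give induced regulatory T cells (iTregs). By that design Tdrd3 would be lost only part of the way through the culture, but the time of its loss was not measured here. No sort of YFP+ cells is described before the RNA was taken. The age of these mice is not given in the sources used here. Each library is described as coming from an independent mouse, although the number of replicates in the methods differs from the 4 labelled per genotype.

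The T cell receptor has no kinase of its own. It sits in the membrane with the CD3 chains and the zeta chain, whose tails carry immunoreceptor tyrosine-based activation motifs (ITAMs). Once the receptor is engaged, LCK phosphorylates the ITAM tyrosines, ZAP-70 docks on them and is activated, and ZAP-70 then phosphorylates the adaptors LAT and SLP-76. Phospholipase C-γ1 is recruited to that scaffold and makes the second messengers that open the calcium, RAS and NF-κB arms. In these cultures anti-CD3 engaged the same receptor complex, and the level of its signal is known to bear on how readily naïve CD4+ cells become Foxp3+.

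The 4 receptor chains carry the ITAMs on which the other components act, and their coding sequences are shown so that the shared motif can be seen. Each is printed from the first codon of the motif to its last, read 5′ to 3′ on the coding strand of GENCODE M39 transcripts (GRCm39), with the codons of the paired tyrosines in capitals. Every motif is joined from 2 exons, so the interval given also spans an intron.

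Cd3e, chr9:44910847-44911738, minus strand: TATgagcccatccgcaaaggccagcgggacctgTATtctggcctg
Cd3d, chr9:44897393-44897609, plus strand: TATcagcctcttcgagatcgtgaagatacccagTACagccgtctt
Cd3g, chr9:44882033-44882566, minus strand: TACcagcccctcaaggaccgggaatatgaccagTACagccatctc
Cd247 motif 1, chr1:165684020-165685023, plus strand: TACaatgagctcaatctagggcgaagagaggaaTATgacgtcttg
Cd247 motif 2, chr1:165686042-165686829, plus strand: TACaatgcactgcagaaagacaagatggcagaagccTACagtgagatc
Cd247 motif 3, chr1:165687388-165688611, plus strand: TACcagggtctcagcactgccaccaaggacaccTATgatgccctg

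The transcripts shown held 1 motif each for Cd3e, Cd3d and Cd3g and 3 for the zeta transcript of Cd247, whereas a search of the coding sequences of the other 5 genes found none. The Cd3d and Cd3g motifs matched at 32 of 45 bases, the closest match among the motifs of 45 bases, and Cd3d against the first Cd247 motif matched at 12 of 45, the least. The number depends on the transcript for Cd247 and Cd3g. Of the annotated coding transcripts of Cd247, 2 held 3 motifs and 6 held 2, and of those of Cd3g, 2 held 1 motif and 1 held 0. The counts deposited are sums per gene that do not separate them. Cd3g, Cd3d and Cd3e lie side by side on chromosome 9 between 44880870 and 44920925, with 1354 bases between Cd3g and Cd3d and 11400 between Cd3d and Cd3e. Cd247 lies apart from them, on chromosome 1 (165616250 to 165704846).

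Counts were scaled to CPM, the count per 1000000 counts of the tested genes. Library totals ran from 13258239 to 16001676 counts over the listed genes, and 3 counts, taken as the floor, equal 0.188 to 0.225 CPM, far below every component. Tdrd3, the gene the knockout targets, had 9.95 to 18.8 CPM in WT and 10.7 to 13.7 CPM in KO, a log2 fold change of −0.35 (edgeR unadjusted P = 0.0370, adjusted p = 0.496). The lowest value of all was in the library labelled WT replicate 3, so the counts do not separate the labels. Without that library the log2 fold change was −0.51 (edgeR unadjusted P = 0.000484, adjusted p = 0.115). Leaving out the lowest control was bound to widen the difference, and that fit gave the lowest of 8 that left out a single library. The highest was −0.23, without WT replicate 1 (edgeR unadjusted P = 0.166), so the size of the Tdrd3 difference depended on the library left out. The floxed part of the gene cannot be seen apart in counts summed over the gene. In what follows, WT replicate 3 stands for the library labelled so. The CD4 T cell and regulatory T cell markers were all listed. Their summed levels were 2402 to 2596 CPM in WT and 2244 to 2386 CPM in KO for 6 CD4 T cell markers, and 2966 to 3125 and 2815 to 2920 CPM for 4 regulatory T cell markers, without overlap in either case. The sums were led by Thy1 (882 to 1035 CPM in WT, 760 to 880 CPM in KO) and Il2ra (2179 to 2370 CPM in WT, 2025 to 2169 CPM in KO). Neither gene overlapped between the genotypes, which held for 4.89% of all tested genes. Foxp3 did overlap, with 93.8 to 122 CPM in WT and 77.2 to 105 CPM in KO. The log2 fold changes of Cd5, Il7r and Ctla4 were above 0, at 0.037, 0.21 and 0.062. Thy1 alone among these markers passed the adjusted threshold (log2 fold change −0.26, edgeR adjusted p = 0.0439). Foxp3 had the lowest log2 fold change of these markers, −0.31 (edgeR unadjusted P = 0.00212, adjusted p = 0.152). Il2ra stood at −0.13 and Ikzf2 at −0.14 (edgeR adjusted p = 0.152 and 0.433). Of B cell, NK cell, myeloid and erythroid markers, 3 of 6, 1 of 4, 3 of 8 and 1 of 4 were listed, with summed levels of at most 3.71 CPM in any library, and Ms4a1, Ncr1, Itgam and Csf1r were not listed. The 2 CD8 T cell markers summed to 7.72 to 21.8 CPM in WT and 6.68 to 8.35 CPM in KO. Their highest sum was in WT replicate 3, where Cd8a stood at 11.3 CPM against 0.436 to 1.37 CPM in the other 7 libraries. KO replicates 1 and 4 had the least Foxp3 (77.2 and 78.1 CPM against 93.2 to 122 CPM in the other 6 libraries). The part of these differences in the results below was not tested, and some results are also given without these libraries.

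None of the 9 genes differed between the genotypes at an adjusted p below 0.05. The question was whether iTregs from mice with floxed Tdrd3 carried the receptor and its first enzymes and adaptors at another level than control iTregs. The genotypes were compared by the two-sided quasi-likelihood test of edgeR. Its p values were adjusted by the Benjamini-Hochberg method over 11317 tested genes. All 9 genes passed the filter on low counts. Of all tested genes, 30 passed the adjusted threshold, 0.265%. DESeq2 and voom, run as other tests, also called 0 of the 9. At an unadjusted P below 0.05, 1 of the 9 passed, Cd247, which was lower in KO, against 9.3% of all tested genes in either direction and 4.91% in that direction. For its list the study used an unadjusted P below 0.05 with a fold change of at least 1.2. By that cutoff, applied to the edgeR values, the count was 0 of 9 against 3.47% of all tested genes. The study's own P values came from DESeq2, which here also gave 0 of 9. Its methods name a higher fold for the genes taken to pathway analysis. In no case did the 4 values of one genotype lie wholly above those of the other, which they did for 4.89% of all tested genes.

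**Figure D1:**
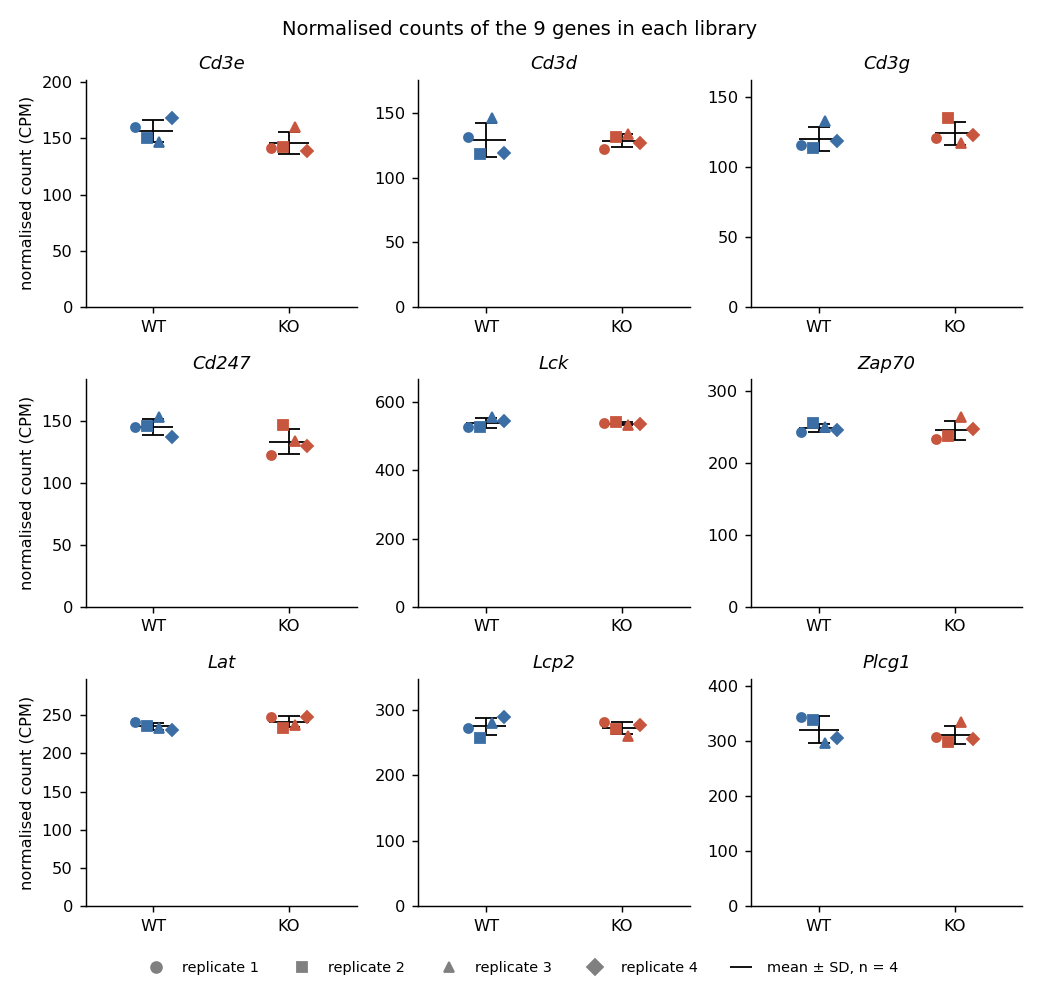
Normalised count (CPM, linear axis from 0) of each of the 9 genes in the 4 WT and 4 KO libraries, with the replicate number as the symbol and the mean ± SD as the bar. The genotypes overlap in every panel, and Lck is the highest, at 526 to 556 CPM.

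Cd3e encodes the CD3 epsilon chain, which pairs with CD3 delta and with CD3 gamma and is the chain that most anti-CD3 antibodies bind. It had 160, 150, 147 and 168 CPM in WT replicates 1 to 4 and 141, 142, 160 and 138 CPM in KO replicates 1 to 4. Of the KO libraries, 3 lay below every control, and replicate 3 lay among the controls. The mean was 156 ± 9.66 CPM in WT and 146 ± 9.98 CPM in KO (SD, n = 4), which gave a log2 fold change of −0.10 (standard error 0.0537, edgeR unadjusted P = 0.0654, adjusted p = 0.583). With KO replicate 3 left out, the log2 fold change was −0.15 (edgeR unadjusted P = 0.00840, adjusted p = 0.294), and without WT replicate 4 it was −0.070 (edgeR unadjusted P = 0.209). The unadjusted P exceeded 0.05 in 5 of the 8 fits that left out a single library, and over all 16 alternatives the adjusted p ranged from 0.294 to 1.00.

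Cd3d encodes the CD3 delta chain, needed for assembly of the receptor on αβ T cells. It had 132, 118, 147 and 119 CPM in WT replicates 1 to 4 and 123, 132, 134 and 127 CPM in KO replicates 1 to 4. All 4 KO values lay inside the range of the controls. The means were 129 ± 13.2 and 129 ± 5.02 CPM (SD, n = 4), and the log2 fold change was −0.0022 (standard error 0.0596, edgeR adjusted p = 0.996). Its sign changed in 7 of the 16 alternative fits.

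Cd3g encodes the CD3 gamma chain, which also takes part in internalization of the receptor. It had 116, 114, 133 and 119 CPM in WT replicates 1 to 4 and 121, 136, 117 and 123 CPM in KO replicates 1 to 4. WT replicate 3 and KO replicate 2 were the high libraries, and the other 6 lay between 114 and 123 CPM, with both genotypes among them. The mean was 120 ± 8.59 CPM in WT and 124 ± 7.93 CPM in KO (SD, n = 4), which gave a log2 fold change of 0.047 (standard error 0.0559, edgeR adjusted p = 0.882).

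Cd247 encodes the zeta chain, the receptor subunit with the most ITAMs. It had 145, 146, 153 and 137 CPM in WT replicates 1 to 4 and 123, 147, 134 and 130 CPM in KO replicates 1 to 4. Of the KO libraries, 3 lay below every control, and replicate 2 lay above 3 of the 4 controls. The mean was 145 ± 6.63 CPM in WT and 133 ± 10.0 CPM in KO (SD, n = 4), which gave a log2 fold change of −0.12 (standard error 0.0532), or −8.21% with a 95% interval from −15.0% to −0.846% (edgeR unadjusted P = 0.0314, adjusted p = 0.478). A two-sided exact permutation test on log2(CPM + 0.5), which with 4 against 4 cannot go below 0.0286, gave p = 0.114. The unadjusted P exceeded 0.05 in 6 of the 8 fits that left out a single library and was 0.133 without KO replicate 1. It fell to 0.00334 without KO replicate 2, where the edgeR adjusted p was 0.126, the lowest of a range up to 1.00 over the 16 alternatives. Exons of Cd247 overlap those of Pou2f1, a gene on the opposite strand, over 3007 bases, and the sources used here do not state whether counting used the strand. Pou2f1 had 123 to 149 CPM in WT and 131 to 137 CPM in KO, a log2 fold change of −0.050 (edgeR adjusted p = 0.860).

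Among the 36 pairs that can be made of the 9 genes, the ratio of Cd3g to Cd247 was the only one whose genotypes did not overlap. Over all pairs of tested genes, 4.83% had ratios that did not overlap. Within a library the ratio does not depend on depth, and this pair was singled out after the values were seen. The ratio of Cd3g CPM to Cd247 CPM was 0.799, 0.780, 0.867 and 0.866 in WT replicates 1 to 4 and 0.985, 0.924, 0.874 and 0.948 in KO replicates 1 to 4. The lowest KO ratio was 0.874 and the highest WT ratio 0.867, so the groups were separated by less than the SD of either, 0.0455 in WT and 0.0464 in KO (n = 4). The two-sided exact permutation p was 0.0286, the smallest this design allows, and 0.795 after adjustment over the 36 pairs. Any ratio without overlap has that smallest p here, so it adds nothing to the choice of the pair.

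**Figure D2:**
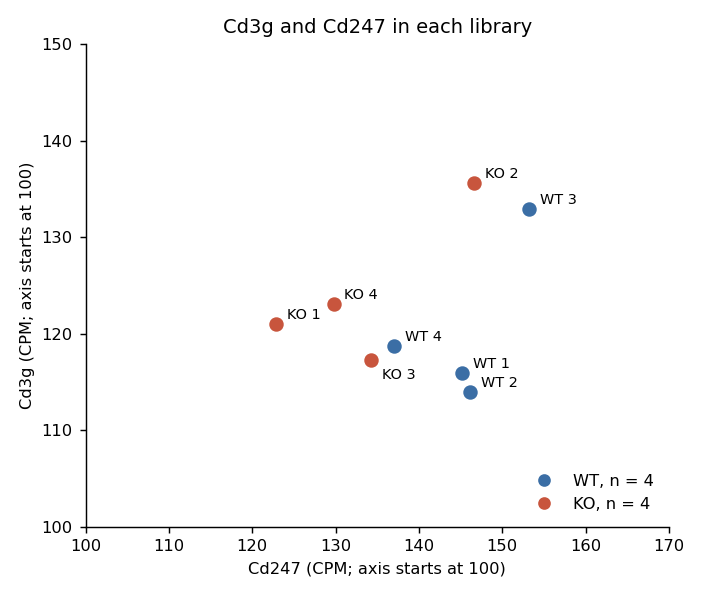
Cd3g against Cd247, both in CPM on linear axes that start at 100, with 1 point per library (4 WT, 4 KO). KO 2 and WT 3 are the highest in Cd3g, and the ratio of Cd3g to Cd247 runs from 0.874 to 0.985 in the KO points and from 0.780 to 0.867 in the WT points.

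Lck encodes the SRC-family kinase that phosphorylates the ITAMs. It had 527, 526, 556 and 546 CPM in WT replicates 1 to 4 and 539, 541, 533 and 536 CPM in KO replicates 1 to 4. The KO values all lay within the span of the controls, and from the lowest to the highest of the 8 libraries the level varied by a factor of 1.06, the least among the 9 genes. The log2 fold change was −0.0046 (standard error 0.0353), also the smallest standard error among the 9, and the 95% interval ran from −5.29% to 4.92% (edgeR adjusted p = 0.980).

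Zap70 encodes the tandem SH2 kinase that binds phosphorylated ITAMs. It had 243, 255, 250 and 246 CPM in WT replicates 1 to 4 and 234, 237, 264 and 247 CPM in KO replicates 1 to 4. The KO libraries held both the lowest and the highest value. The log2 fold change was −0.018 (standard error 0.0431, edgeR adjusted p = 0.941). Syk, the related kinase that B cells and myeloid cells use in this place, had 0.354 to 1.33 CPM in WT and 0.475 to 1.35 CPM in KO.

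Lat encodes the transmembrane adaptor that ZAP-70 phosphorylates. It had 241, 236, 233 and 231 CPM in WT replicates 1 to 4 and 247, 233, 237 and 248 CPM in KO replicates 1 to 4. KO replicates 1 and 4 lay above every control, and the other two KO libraries lay among the controls. The log2 fold change was 0.037 (standard error 0.0389), and the 95% interval ran from −3.03% to 8.57% (edgeR adjusted p = 0.860).

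Lcp2 encodes SLP-76, the cytosolic adaptor that joins the LAT scaffold. It had 272, 257, 280 and 290 CPM in WT replicates 1 to 4 and 281, 271, 260 and 276 CPM in KO replicates 1 to 4. The controls held both the lowest and the highest value. The log2 fold change was −0.014 (standard error 0.0431, edgeR adjusted p = 0.953).

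Plcg1 encodes phospholipase C-γ1, which cleaves a membrane lipid into the messengers inositol trisphosphate and diacylglycerol. It had 344, 339, 296 and 305 CPM in WT replicates 1 to 4 and 308, 298, 334 and 303 CPM in KO replicates 1 to 4. Control replicates 1 and 2 and KO replicate 3 were high and the other 5 libraries were low, so high and low libraries occurred in both genotypes. The mean was 321 ± 23.8 CPM in WT and 311 ± 16.01 CPM in KO (SD, n = 4), which gave a log2 fold change of −0.047 (standard error 0.0506, edgeR adjusted p = 0.864). It was −0.013 without WT replicate 1 and −0.084 without WT replicate 3.

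Exons of Lcp2 and Plcg1 also overlap genes on the opposite strand, 4930469K13Rik over 815 bases and Zhx3 over 379 bases. These stood at 0.822 to 1.89 CPM and 18.3 to 26.1 CPM, far below Lcp2 and Plcg1.

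Over the 9 genes, 7 log2 fold changes were below 0 and 2 above, with a median of −0.014, against a median of 0.0013 over all tested genes. The median size of the log2 fold change without its sign was 0.037 in the 9 genes and 0.063 in all tested genes. Highly expressed genes are measured more precisely, and among the 1840 tested genes whose mean CPM lay in the range of these 9 the median size was 0.036. All 9 intervals lay inside a fold change of 1.2 in either direction, with the lowest bound at −15.0% (Cd247) and the highest at 12.01% (Cd3g), while 59.1% of all tested genes had intervals inside that fold. That share was not taken for the 1840 genes of similar level. The median standard error was 0.0506 in the 9, 0.0738 in all tested genes and 0.0447 in those 1840. Several components were highest among the controls in WT replicate 3, namely Cd3d, Cd3g, Cd247 and Lck, while Cd3e and Plcg1 were lowest there. Without that library, the log2 fold changes were 0.065 for Cd3d, 0.098 for Cd3g, −0.097 for Cd247, 0.011 for Lck and −0.13 for Cd3e, and 0 of the 9 passed the adjusted threshold. Without KO replicates 1 and 4, an omission added after the values were seen, Cd3e stood at −0.051 and Cd247 at −0.049, and again 0 of the 9 passed. With fewer KO libraries the standard errors were larger, 0.0664 for Cd3e and 0.0619 for Cd247 against 0.0537 and 0.0532. No other pair of KO libraries was left out, so what is particular to these libraries was not tested. In bulk RNA, fewer cells that express a gene and less of its RNA per cell cannot be told apart.

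**Figure D3:**
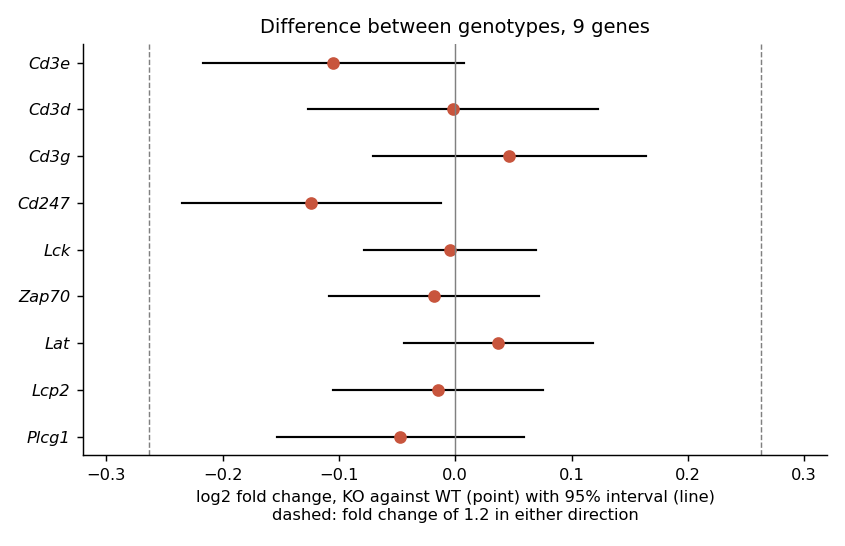
Log2 fold change of KO against WT (points) with the 95% interval from edgeR (lines) for the 9 genes, n = 4 libraries per genotype, and dashed lines at a fold change of 1.2 in either direction. Every interval lies between the dashed lines, and that of Cd247 is the only one that does not include 0.

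Levels can be compared between genes only per length. On CPM per kilobase of merged exons (the union of all annotated exons of a gene), averaged over the 8 libraries, the order was Lck, Lat, Zap70, Lcp2, Cd3d, Cd3g, Cd3e, Plcg1 and Cd247. Lck stood at 171 ± 3.14 CPM per kilobase (SD, n = 8), 2.03 times Lat at 84.0, and Cd247 was last at 23.7. Zap70 was at 69.3 and Lcp2 at 59.5 CPM per kilobase. Cd3d was at 49.8, Cd3g at 37.3, Cd3e at 37.0 and Plcg1 at 35.3. The ranges over libraries overlapped for the neighbours Lcp2 and Cd3d, Cd3g and Cd3e, and Cd3e and Plcg1. Within each of the 8 libraries Lcp2 nevertheless lay above Cd3d. Cd3g and Cd3e, and likewise Cd3e and Plcg1, changed places between libraries and could not be ordered.

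The choice of length moved the CD3 chains in this order. Divided by the longest coding transcript instead, Cd3g stood at 119 and Cd3e at 103 CPM per kilobase, next to Zap70 at 103, since the merged exons of Cd3g cover 3275 bases and its longest coding transcript 1029. Lcp2 was then at 72.3, Plcg1 at 57.5 and Cd3d at 55.6. Lck at 246 and Lat at 177 had the highest levels on both lengths. Cd247 had the lowest mean on both, at 47.1 here. By the longest coding transcript the ranges over libraries overlapped for Cd3g and Cd3e, Cd3e and Zap70, Plcg1 and Cd3d, and Cd3d and Cd247. Those ranges did not separate them, and the order within each library was not examined on that length.

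**Figure D4:**
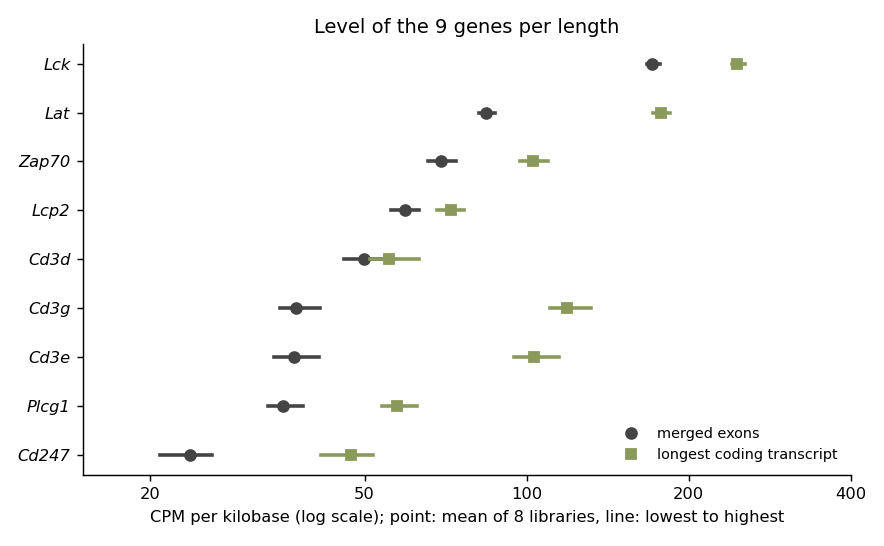
Level of the 9 genes in CPM per kilobase (log axis) by merged exons and by the longest coding transcript, with the mean of the 8 libraries as the point and the lowest to highest library as the line. Lck is highest on both lengths (171 and 246), Cd247 has the lowest mean on both (23.7 and 47.1) but overlaps Cd3d by the longest transcript, and Cd3g and Cd3e lie above Lcp2 and Cd3d only by the longest transcript.

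The 66 other genes of the pathway, in 4 lists, were all tested and none passed the adjusted threshold. At an unadjusted P below 0.05, 9 of the 66 were lower in KO (13.6%, against 4.91% of all tested genes and 6.52% of those in the CPM range of the 9 components) and 1 was higher (against 4.38% of all tested genes). The genotypes did not overlap for 3 of the 66, Ptprc, Txk and Pag1, all lower in KO (4.55%, against 4.89% of all tested genes). By the study's cutoff, applied to the edgeR values, 1 of the 66 passed, Txk, against 3.47% of all tested genes. The median log2 fold change of the 66 was −0.015. Without KO replicates 1 and 4, the libraries with the least Foxp3, 2 of the 66 were lower at an unadjusted P below 0.05, Grap2 and Ubash3a, and 0 higher, against 2.09% and 1.82% of all tested genes. Without WT replicate 3, 6 were lower and 2 higher, against 4.88% and 4.94%.

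Among 8 receptor-level partners, 2 were lower in KO at an unadjusted P below 0.05 and 0 higher. These were 25% and 0%, against 4.91% and 4.38% of all tested genes. Ptprc encodes CD45, the phosphatase that removes the inhibitory phosphate from LCK. It had 1204, 1152, 1177 and 1166 CPM in WT replicates 1 to 4 and 1084, 1149, 1088 and 1101 CPM in KO replicates 1 to 4, a log2 fold change of −0.087 (standard error 0.0344, edgeR unadjusted P = 0.0200, adjusted p = 0.416). Every KO library lay below every control, the nearest pair at 1149 and 1152 CPM. Cd28, the costimulatory receptor that the culture also engaged, had 162 to 178 CPM in WT and 151 to 162 CPM in KO, a log2 fold change of −0.10 (edgeR adjusted p = 0.494).

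Among 20 kinases, adaptors and exchange factors next to LAT and SLP-76, 3 were lower in KO at an unadjusted P below 0.05 and 0 higher. The shares were 15% and 0%, against 4.91% and 4.38% of all tested genes. Grap2 encodes GADS, the adaptor that bridges LAT and SLP-76. It had 290, 280, 281 and 248 CPM in WT replicates 1 to 4 and 231, 254, 248 and 232 CPM in KO replicates 1 to 4, where WT replicate 4 lay among the KO values. Its log2 fold change was −0.19 (standard error 0.0492, edgeR unadjusted P = 0.00120, adjusted p = 0.126). Fyb1 encodes ADAP, a partner of SLP-76 in integrin activation. It had 190, 178, 182 and 148 CPM in WT replicates 1 to 4 and 131, 161, 158 and 137 CPM in KO replicates 1 to 4, again with WT replicate 4 among the KO values, a log2 fold change of −0.25 (standard error 0.0712, edgeR unadjusted P = 0.00250, adjusted p = 0.168). Both calls depended on the setting. Without WT replicate 4, and likewise without KO replicate 2, both genes passed the adjusted threshold, with edgeR adjusted p values as low as 0.0126 for Grap2 and 0.0140 for Fyb1. Over all 16 alternatives the adjusted p ranged up to 1.00 for both. Without KO replicates 1 and 4 the log2 fold change was −0.13 for Grap2 and −0.13 for Fyb1. Grap2 also passed with DESeq2 and with voom. The remaining gene, Txk, encodes a TEC-family kinase and was named after its values were seen. It had 12.5 to 15.7 CPM in WT and 10.8 to 11.5 CPM in KO, a log2 fold change of −0.30 (edgeR unadjusted P = 0.0144, adjusted p = 0.366). The kinase Fyn, which acts beside LCK, had a log2 fold change of −0.0051.

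Among 16 negative regulators, 3 were lower in KO at an unadjusted P below 0.05 and 0 higher. That is 18.8% and 0%, against 4.91% and 4.38% of all tested genes. Pag1 encodes a membrane adaptor that holds CSK, the kinase that inhibits LCK. It had 81.2, 80.7, 83.2 and 83.6 CPM in WT replicates 1 to 4 and 70.4, 77.8, 75.1 and 69.6 CPM in KO replicates 1 to 4. All KO values lay below all control values, and the log2 fold change was −0.17 (standard error 0.0520, edgeR unadjusted P = 0.00484, adjusted p = 0.229). Ubash3a, which encodes a receptor-restraining protein of the STS family, had 137 to 148 CPM in WT and 127 to 137 CPM in KO (log2 fold change −0.11, edgeR adjusted p = 0.425). Without KO replicates 1 and 4, Pag1 stood at −0.10 and Ubash3a at −0.13. The remaining gene, Dok2, an inhibitory adaptor named after its values were seen, had 38.3 to 42.8 CPM in WT and 34.5 to 39.7 CPM in KO.

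Among 22 genes of the second messenger arms, 1 was lower and 1 higher in KO at an unadjusted P below 0.05. Each is 4.55%, near the 4.91% lower and 4.38% higher of all tested genes. Malt1, the paracaspase of the NF-κB arm, had 231 to 261 CPM in WT and 246 to 284 CPM in KO (log2 fold change 0.12, edgeR adjusted p = 0.471). Dgka, the kinase that clears diacylglycerol, had 237 to 271 CPM in WT and 220 to 253 CPM in KO (log2 fold change −0.12, edgeR adjusted p = 0.471). Both ranges overlapped between the genotypes. Without KO replicates 1 and 4, the log2 fold change was 0.038 for Malt1 and −0.037 for Dgka.

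**Figure D5:**
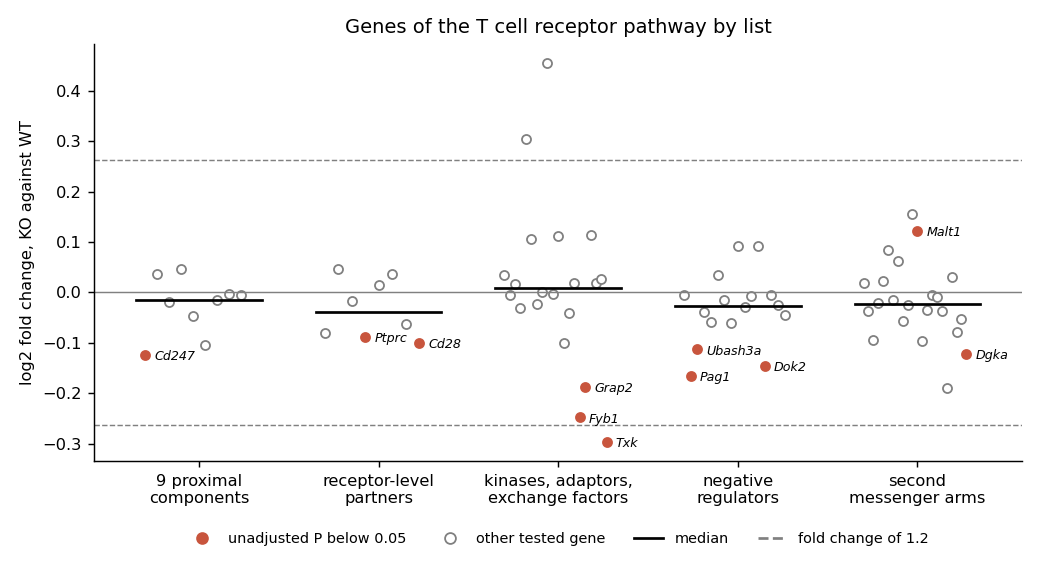
Log2 fold change of KO against WT for the 9 components and the 4 lists of other pathway genes, with 1 point per gene, filled and named where the unadjusted P was below 0.05, the list median as a black line and dashed lines at a fold change of 1.2. The filled points are lower in KO except Malt1, and Txk (−0.30) lies below the lower dashed line. The open points above the upper dashed line are Gab2 (0.46) and Shb (0.30), which had mean levels of 1.68 to 4.22 CPM.

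The mean z-score of the 9 genes (each gene's log2 CPM centred and scaled over the 8 libraries) was highest in WT replicate 3, at 0.566, and lowest in KO replicate 1, at −0.335. The genotypes overlapped, since it was −0.301 in WT replicate 2 and 0.129 in KO replicate 3. Outside the lists, the genes whose log2 CPM followed it most closely were Panx1 (Pearson r = 0.948), Mre11a (0.940), H4c2 (0.938), Banp (0.934) and Lrrc1 (0.932). These are the extremes of a search over all other tested genes in the same 8 libraries, share their depth, and are given without a test. Panx1 had 47.9 CPM in WT replicate 3 against 40.2 to 44.05 CPM in the other 7 libraries, and Mre11a 94.5 against 84.7 to 87.8 CPM.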

How the data were processed

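Reads had been aligned by the authors with STAR 2.7.8a (GRCm39) and assigned to genes by Partek Flow's E/M method, in which a read that fits several genes is shared between them. The values deposited are estimated counts, filtered but not normalised. The annotation and strand setting are not given in the sources used here. Of the deposited values, 43.0% were not whole. Every value was fractional for Lck, Zap70, Lcp2 and Cd247, and every value was whole for Cd3d and Cd3g.

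Here, estimated counts were rounded, filtered with filterByExpr (minimum count 10), scaled by TMM (factors 0.993 to 1.00) and fitted for genotype with edgeR 4.0.16 in R 4.3.3 (limma 3.58.1 for voom, DESeq2 1.42.0), with Benjamini-Hochberg adjustment over 11317 genes; 594 were left out. The fit was tested on simulated data. Single values were compared by two-sided exact permutation tests over 70 arrangements with a pseudocount of 0.5 CPM. Exon lengths, overlaps and coding sequences came from GENCODE M39. Libraries of a genotype differed by more than sampling noise (chi-square per degree of freedom 2.59 to 6.32). The closest pairs were WT replicates 1 and 2 at 2.70, against 4.96 to 6.32 for other WT pairs, and KO replicates 1 and 4 at 2.59. Other KO pairs had 3.79 to 4.85. The cause of this closeness was not tested. Floors cover counting error only.

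The members and lists were chosen with earlier results of these data known. Named genes were the 9 components, in each list those past an adjusted p of 0.05 and otherwise the 2 with the smallest unadjusted P, the 5 genes most correlated with the components, and Tdrd3. Alternatives were other filters, scalings and tests, a replicate block and the omission of libraries.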

Additional observations from a re-analysis of the deposited data

Results flagged for a closer look

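Each genotype's 4 values were examined for a library far from the other 3. This was done for 22 genes in both genotypes, 44 groups in all, and 3 were singled out (6.82%). The 22 were the components, the pathway genes named for their small P, Tdrd3, and the markers Cd8a, Cd8b1, Foxp3 and Thy1. Since these were not drawn at random, the share cannot be set against the 5% that chance alone would give. Cd3e was 160 CPM in KO replicate 3 against at most 142 CPM in the other KO libraries. Cd8a was 11.3 CPM in WT replicate 3 against at most 1.37 CPM in the other controls. Thy1 was 882 CPM in WT replicate 4 against at least 1019 CPM in the other controls.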

How the results depend on the processing

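Under 16 alternatives, 0 of the 9 components passed the adjusted threshold or the study's cutoff, the lowest adjusted p being 0.126 (edgeR, Cd247). The count of all genes past the adjusted threshold was 30 and moved to 81 with DESeq2, 95 with voom, and 6 to 162 when a library was left out, lowest without KO replicate 1 and highest without KO replicate 2. It was 3 without KO replicates 1 and 4, an omission chosen after seeing the data because these libraries lay apart. No other pair of KO libraries was left out beside it, and fewer libraries also leave a test less able to call genes. The count of the 66 pathway genes, 0, moved to 1 with DESeq2 and with voom (Grap2 in both) and to 0 to 2 when a library was left out. The same-numbered libraries did not vary together (correlations −0.052 to 0.064), and a replicate block gave 87 genes, 0 of the 9 and 0 of the 66. The sign of a log2 fold change near 0 turned in 17 of 144 fits. With voom it was 0.0021 for Cd3d, 0.0050 for Lck and 0.0011 for Lcp2; with the replicate block 0.0025 for Cd3d; and without KO replicates 1 and 4 it was 0.040 for Cd3d, 0.0098 for Zap70 and −4.4e-06 for Lat. With a library left out, it ran from −0.041 to 0.065 for Cd3d, −9.3e-05 to 0.098 for Cd3g, −0.016 to 0.011 for Lck, −0.054 to 0.0032 for Zap70 and −0.045 to 0.010 for Lcp2. Cd3e, Cd247 and Plcg1 stayed below 0 in all 16. The causes were not tested.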
